A study of Homo sapiens with 8 samples.

Results

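The MYC, MAX and MXD network is a group of transcription factors that pair with one another through a basic helix-loop-helix leucine zipper. Its members were taken by gene symbol from the read count lists, and all 10 of them (MYC, MYCN, MAX, MXD1, MXD3, MXD4, MXI1, MNT, MLX and MGA) were found among the 23228 genes listed. Of these, 9 passed the filter on low counts and stood among the 13694 genes tested, and MYCN did not pass it. The counts came from BT-549, an established triple-negative breast cancer (TNBC) line grown in RPMI medium with fetal bovine serum. Cells received the DMSO vehicle alone, the LIFR inhibitor EC359 at 100 nM, the HDAC inhibitor vorinostat at 10 µM, or EC359 and vorinostat together at these doses, and RNA was taken after 24 h. Each of the 4 groups held 2 RNA-seq libraries, all from this single line. The study asked how blocking the receptor of leukemia inhibitory factor alters the response of such cells to HDAC inhibition.

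MAX is the shared partner of the network. MYC and MYCN bind DNA with MAX at the E-box CACGTG and recruit acetyltransferases that open chromatin, while MXD1, MXD3, MXD4, MXI1 and MNT take MAX for themselves and bring the SIN3 corepressor, with its histone deacetylases, to the same sequence. MLX is a second hub that pairs with MXD proteins, MNT and the glucose-sensing factors MLXIP and MLXIPL, and MGA is the giant MAX partner that belongs to the repressive complex PRC1.6. MYC is amplified or overexpressed in many triple-negative tumours, and MXD1 and MXI1 are typically high in cells that leave the cell cycle.

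The libraries held 19069450 to 24759041 counts assigned to genes. Values are given as TMM-scaled CPM, the counts of a gene relative to the size of its library, which compare a gene between libraries, and as TPM, which also correct for gene length and serve to compare genes. Over all tested genes, the log2 values of the EC359 libraries differed from each other with an SD of 0.563, against 0.312 to 0.448 in the other groups. EC359 library 1 lay farther from vehicle than EC359 library 2 in all 9 tested members, and in 61.0% of all tested genes. The study states in general terms that its assays in cells used biological replicates, and for the RNA-seq that samples were run in duplicate. No label says that the libraries of a group came from separate cultures, so p-values measure the spread between these samples, which may be technical. Markers of the line stood as its label has it for the most part, with VIM at 1865 to 7804 TPM, ESR1 at no more than 0.317 TPM, PGR at no more than 0.0149 TPM and the leukocyte gene PTPRC at no more than 0.218 TPM. The epithelial genes CDH1 and EPCAM reached 1.62 and 7.84 TPM. ERBB2 was present at 4.96 to 46.4 TPM. In bulk RNA, fewer cells of a kind and less RNA per cell cannot be told apart.

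MYC was the most abundant member in every group. In vehicle it stood at 151 ± 13.8 TPM (SD, n = 2), above MXD4 at 54.1 ± 2.14 TPM and MAX at 54.1 ± 0.0611 TPM, whose libraries overlapped. MLX followed at 50.1 ± 2.22 TPM, then MXD3 at 31.9 ± 1.55, MNT at 20.1 ± 2.46, MXI1 at 14.2 ± 0.487, MGA at 11.1 ± 0.125 and MXD1 at 3.09 ± 0.320 TPM. From MAX downwards no neighbours in this order overlapped. In the combination group MYC reached 536 ± 37.6 TPM and MAX 102 ± 5.27 TPM, followed by MLX at 53.3 ± 4.90 TPM. MXD1 had moved from the lowest of the 9 tested members to the fourth place, at 43.0 ± 0.115 TPM, and MXI1 to the fifth, at 36.9 ± 0.549 TPM. MXD4 stood at 29.0 ± 0.657 TPM, MNT at 19.5 ± 1.94, MXD3 at 11 ± 0.953 and MGA at 8.72 ± 0.351 TPM, again with no overlap between neighbours. Under EC359 alone the lower end of the order was not resolved, since MXD4, MNT and MXI1, at 27.6 to 23.5 TPM, overlapped with their neighbours, as did MGA, MXD3 and MXD1, at 14.2 to 9.71 TPM.

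The DNA before the start of the member genes was searched for the network's own site. Windows of 250 bases before RefSeq start sites (table on GRCh38.p14) were available for 9 of the 10 members, all but MYC, 14 windows in all. The palindrome CACGTG, which reads the same on both strands, was found in 3 of the 14 windows, those of MXD4, MNT and MLX, and in 6.34% of 35116 windows of the same length. It began 238, 193 and 50 bases before the start, respectively. The palindrome TTCNNNGAA, the core of STAT sites, was found in 0 of the 14 windows and in 6.57% of all windows. The windows were rich in G and C, with a median of 65.8% for the members and 58% for all windows. The stretches that hold the E-box follow with CACGTG in capitals, together with that of MXD1, the member with the widest change, whose window held none. Each is the part of the RefSeq window that holds no exon base in GENCODE, matched exactly to GRCh37. These stretches lie at chr4:2263837-2264086 on the minus strand (MXD4), chr17:2304399-2304604 on the minus strand (MNT), chr17:40718868-40719089 on the plus strand (MLX) and chr2:70141991-70142172 on the plus strand (MXD1). The MXD1 stretch lies inside the GENCODE span of that gene (70124820 to 70170077), so it precedes a RefSeq start and not the GENCODE start. A match of letters is a description of the sequence and not of binding.
MXD4: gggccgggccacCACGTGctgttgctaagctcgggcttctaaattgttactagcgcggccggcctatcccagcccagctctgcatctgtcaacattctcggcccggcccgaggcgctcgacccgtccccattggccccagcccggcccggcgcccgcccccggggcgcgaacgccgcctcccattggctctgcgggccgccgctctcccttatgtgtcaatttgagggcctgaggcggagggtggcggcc
MNT: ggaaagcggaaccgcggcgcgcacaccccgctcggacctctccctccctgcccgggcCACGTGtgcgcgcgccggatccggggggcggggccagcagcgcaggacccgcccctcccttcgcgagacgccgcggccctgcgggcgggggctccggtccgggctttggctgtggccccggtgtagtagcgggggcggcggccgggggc
MLX: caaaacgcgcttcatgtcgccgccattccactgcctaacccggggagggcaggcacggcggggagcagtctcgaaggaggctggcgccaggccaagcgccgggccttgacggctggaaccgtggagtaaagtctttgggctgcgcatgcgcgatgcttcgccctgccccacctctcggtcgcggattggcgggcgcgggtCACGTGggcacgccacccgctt
MXD1: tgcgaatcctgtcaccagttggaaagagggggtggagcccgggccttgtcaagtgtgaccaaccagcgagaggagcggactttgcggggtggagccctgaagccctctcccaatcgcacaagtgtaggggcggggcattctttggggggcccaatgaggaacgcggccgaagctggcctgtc

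MYC, the activating partner of MAX and a driver of growth and ribosome synthesis, was raised by each drug and most by both. Its libraries held 207 and 184 CPM in vehicle, 420 and 338 with EC359, 338 and 322 with vorinostat, and 731 and 804 with both drugs. All treated libraries were above all vehicle libraries, the EC359 and vorinostat libraries overlapped, and the combination libraries were above the rest. Against vehicle the log2 fold change was 0.95 ± 0.12 (SE) under EC359 (adjusted p = 7.8e-04), 0.76 ± 0.12 under vorinostat (adjusted p = 4.4e-04) and 1.97 ± 0.12 under the combination (adjusted p = 1.2e-06), by the quasi-likelihood test of edgeR with Benjamini-Hochberg adjusted values. This was 1.94-fold, 1.69-fold and 3.93-fold, respectively. Adding EC359 to vorinostat raised MYC by 1.22 ± 0.12 on the log2 scale (adjusted p = 1.7e-04, edgeR), and adding vorinostat to EC359 raised it by 1.02 ± 0.12 (adjusted p = 6.0e-05, edgeR). Leaving out vehicle library 2 took MYC under EC359 to a log2 fold change of 0.88 (adjusted p = 0.017, edgeR), which misses the threshold of 0.01.

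The other gene of the MYC class, MYCN (chromosome 2), which marks neural and neuroendocrine cells, was at the limit of detection. Its libraries held 0 and 1 counts in vehicle, 0 and 3 with EC359, 3 and 0 with vorinostat, and 0 and 0 with both. No library exceeded 3 counts, the limit that a count of 0 allows, which is 0.124 to 0.154 CPM at these depths and covers counting error only. MYCNOS, its antisense transcript, was at 0 in all 8 libraries. PVT1, a long noncoding gene that neighbours MYC on chromosome 8, had a pattern of its own. Its level was 10.2 ± 0.142 CPM in vehicle, 15.8 ± 1.92 with EC359, 6.47 ± 1.07 with vorinostat and 12.6 ± 0.488 with both drugs. It fell under vorinostat by 0.65 on the log2 scale (adjusted p = 0.0085, edgeR) and rose by 0.95 when EC359 was added to vorinostat (adjusted p = 0.0040, edgeR). Under EC359 alone its log2 fold change was 0.63 (adjusted p = 0.031, edgeR).

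**Figure D1:**
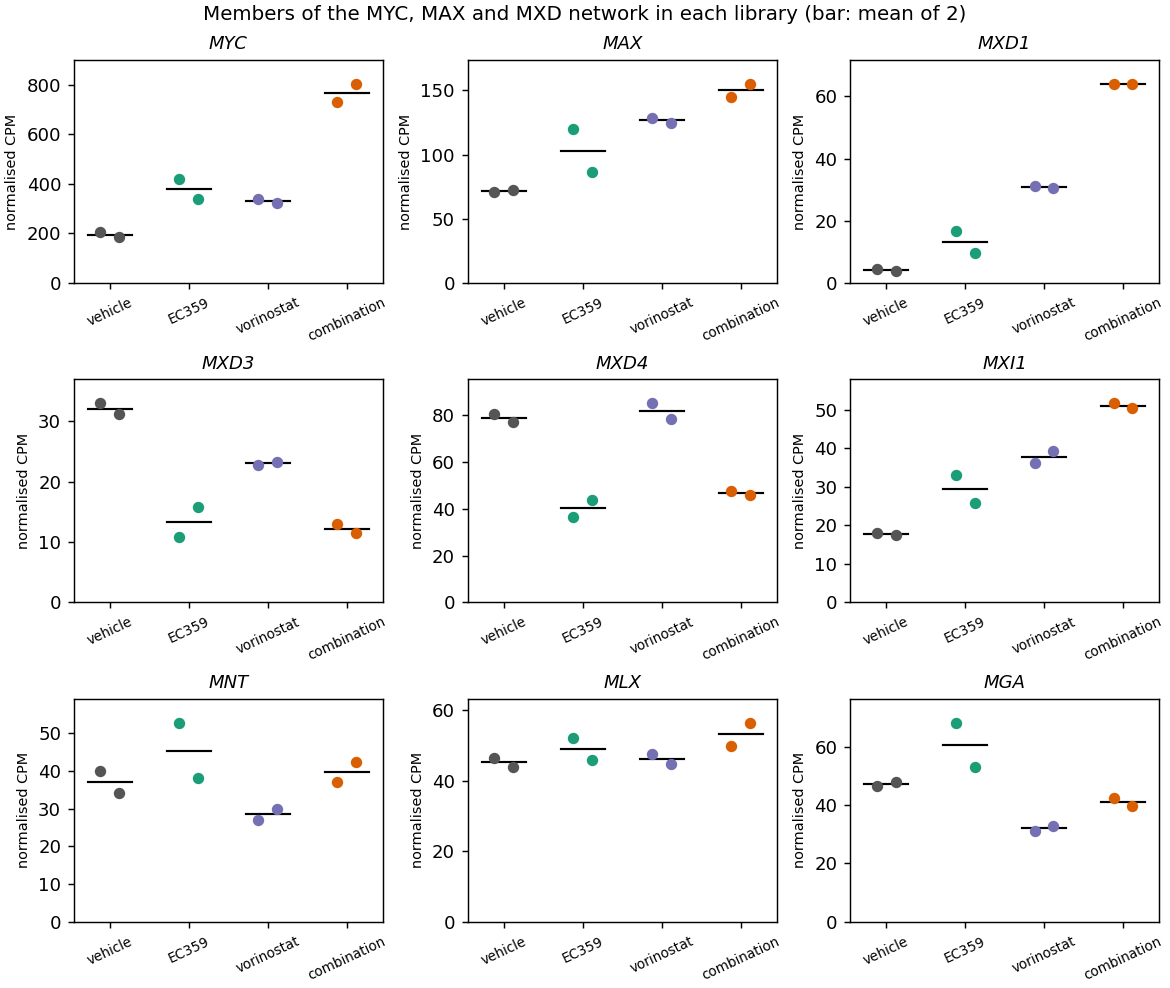
TMM-scaled CPM of each tested member in each library (points) by group, with a bar at the mean of the 2 libraries and each axis starting at 0. The combination libraries of MYC (731 and 804 CPM) and MXD1 (64.0 and 63.9 CPM) lie above all other libraries of these genes, and those of MXD3 and MXD4 lie below both vehicle libraries.

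MAX (chromosome 14, 65472892 to 65569413, minus strand, GRCh37), the partner that MYC and MXD proteins share at the E-box, rose under vorinostat and under the combination. Its vehicle libraries held 71.2 and 72.1 CPM, the EC359 libraries 120 and 86.1, the vorinostat libraries 129 and 125, and the combination libraries 145 and 155 CPM. The EC359 libraries lay apart from each other but above vehicle, and the combination libraries were the highest. Relative to vehicle, MAX changed by 0.82 ± 0.14 on the log2 scale with vorinostat (adjusted p = 8.0e-04, edgeR) and by 1.07 ± 0.14 with both drugs (adjusted p = 1.4e-04, edgeR). Under EC359 alone the log2 fold change of MAX was 0.53 ± 0.14 and did not pass (adjusted p = 0.036, edgeR), although it did in DESeq2 (adjusted p = 0.0076). Over the alternatives, which include leaving out either EC359 library, it ran from 0.27 to 0.75. The rise under vorinostat missed the threshold without vehicle library 1 (adjusted p = 0.011, edgeR). Adding vorinostat to EC359 raised MAX by 0.54 ± 0.14 (adjusted p = 0.0076, edgeR), a call lost with RLE in place of TMM scaling (adjusted p = 0.011, edgeR) and when any 1 vehicle, vorinostat or combination library was left out (adjusted p between 0.019 and 0.081, edgeR). Adding EC359 to vorinostat gave 0.24, with a 95% interval of -0.08 to 0.56 (adjusted p = 0.23, edgeR). Exons of MAX share 822 bases with FNTB on the opposite strand, which held 1 to 12 counts in the 8 libraries.

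MXD1 (chromosome 2, 70124820 to 70170077, plus strand, GRCh37), the MAX partner of differentiating cells, showed the widest change of the network. From 4.44 and 3.88 CPM in vehicle it went to 16.8 and 9.49 CPM with EC359, 31.2 and 30.4 CPM with vorinostat, and 64.0 and 63.9 CPM with both. The groups formed 4 separate levels with no overlap, and the EC359 libraries were the farthest apart. MXD1 rose by 1.67 ± 0.25 under EC359 (adjusted p = 0.0021, edgeR), by 2.89 ± 0.25 under vorinostat (adjusted p = 9.8e-06, edgeR) and by 3.94 ± 0.25 under the combination (adjusted p = 1.3e-06, edgeR), all as log2 fold changes against vehicle. The last corresponds to a 15.4-fold level. Against vorinostat alone the combination was higher by 1.05 ± 0.21 (adjusted p = 0.0067, edgeR), and against EC359 alone by 2.28 ± 0.22 (adjusted p = 2.0e-05, edgeR). The step from vorinostat to the combination lost its call when any 1 vehicle, vorinostat or combination library was left out (adjusted p between 0.015 and 0.069, edgeR), with log2 fold changes of 1.00 to 1.06. The rise under EC359 alone lost its call without vehicle library 1 (adjusted p = 0.021, edgeR) or vehicle library 2 (adjusted p = 0.033, edgeR). SNRNP27, which shares 237 exon bases with MXD1 on the same strand, passed in no comparison.

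MXI1 (chromosome 10, 111967363 to 112047123, plus strand, GRCh37), also known as MXD2 and long studied as a growth-restraining member, rose in the same order. Its libraries held 18.1 and 17.5 CPM in vehicle, 33.2 and 25.9 with EC359, 36.3 and 39.4 with vorinostat, and 51.7 and 50.4 CPM with both. Each treated group was above vehicle, and the combination was above both single drugs. The log2 fold change against vehicle was 0.73 ± 0.14 under EC359 (adjusted p = 0.0073, edgeR), 1.09 ± 0.14 under vorinostat (adjusted p = 1.1e-04, edgeR) and 1.52 ± 0.14 under the combination (adjusted p = 1.2e-05, edgeR). The rise under EC359 did not pass when any 1 vehicle, vorinostat or combination library was left out (adjusted p between 0.018 and 0.075, edgeR). Adding vorinostat to EC359 raised MXI1 by 0.79 ± 0.13 (adjusted p = 6.7e-04, edgeR), and adding EC359 to vorinostat gave 0.43 ± 0.13, which did not pass (adjusted p = 0.040, edgeR).

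MXD3 and MXD4, MXD proteins of the same repressor class, fell with EC359. MXD3 (chromosome 5, 176728462 to 176739758, minus strand, GRCh37), the member tied to S phase and proliferating progenitors, stood at 33.0 and 31.2 CPM in vehicle and at 10.9 and 15.8 CPM under EC359. Under vorinostat it stood at 22.8 and 23.3 CPM, and under the combination at 13.0 and 11.4 CPM. The combination libraries lay within the range of the EC359 libraries, and the vorinostat libraries lay between these and vehicle. MXD3 fell by 1.27 under EC359 (SE 0.18, adjusted p = 0.0014, edgeR) and by 1.39 under the combination (SE 0.18, adjusted p = 1.1e-04, edgeR) on the log2 scale. Under vorinostat alone the log2 fold change was -0.48 and did not pass (adjusted p = 0.035, edgeR). Adding EC359 to vorinostat lowered MXD3, with a log2 fold change of -0.92 ± 0.18 (adjusted p = 0.0059, edgeR), and adding vorinostat to EC359 gave -0.12, with a 95% interval of -0.53 to 0.29. The call under EC359 was lost without vehicle library 1 (adjusted p = 0.019, edgeR) or vehicle library 2 (adjusted p = 0.014, edgeR), and that of adding EC359 to vorinostat when any 1 vehicle, vorinostat or combination library was left out (adjusted p between 0.015 and 0.050, edgeR).

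MXD4 (chromosome 4, 2249159 to 2263836, minus strand, GRCh37), whose upstream stretch with an E-box is shown above, held 80.5 and 77.0 CPM in vehicle. It held 36.6 and 43.9 CPM under EC359, 85.0 and 78.5 CPM under vorinostat, and 47.5 and 45.8 CPM under the combination. The 4 libraries with EC359 all lay below the 4 libraries without it. The log2 fold change was -0.97 ± 0.11 under EC359 (adjusted p = 5.1e-04, edgeR) and -0.75 ± 0.11 under the combination (adjusted p = 2.7e-04, edgeR) against vehicle, and -0.81 ± 0.11 for the combination against vorinostat (adjusted p = 0.0012, edgeR). Vorinostat alone gave 0.05, with a 95% interval of -0.20 to 0.30 (adjusted p = 0.68, edgeR). The call of the combination against vorinostat was lost when any 1 vorinostat or combination library was left out (adjusted p between 0.011 and 0.019, edgeR). Exons of MXD3 share 926 bases with RAB24 on the same strand and 1148 bases with PRELID1 on the opposite strand. Reads that the counting found ambiguous between genes were set apart, 0.649% to 0.850% of unique alignments. Reads on shared exons may therefore be missing from the counts of these genes. RAB24 had log2 fold changes of 0.26 under EC359 (adjusted p = 0.21, edgeR) and 1.10 under the combination (adjusted p = 6.3e-05, edgeR), and PRELID1 of 0.37 (adjusted p = 0.27, edgeR) and -0.68 (adjusted p = 0.018, edgeR).

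MNT and MLX passed in no comparison, and MGA fell with vorinostat. MNT (chromosome 17, 2287367 to 2304398, minus strand, GRCh37), the broadly expressed antagonist of MYC, held 40.03 and 34.1 CPM in vehicle, 52.7 and 38 with EC359, 27 and 29.97 with vorinostat, and 37.1 and 42.4 CPM with both. Only the vorinostat libraries stood clear of vehicle, below it, and MNT passed in no comparison, with log2 fold changes between -0.38 (vorinostat against vehicle, adjusted p = 0.076, edgeR) and 0.48 (combination against vorinostat, adjusted p = 0.064, edgeR). MLX (chromosome 17, 40719090 to 40725257, plus strand, GRCh37), the hub that MLXIP and MLXIPL share, moved least, with log2 fold changes between 0.03 and 0.23. It held 46.3 and 44 CPM in vehicle, 52.1 and 46.0 with EC359, 47.6 and 44.6 with vorinostat, and 49.8 and 56.4 CPM with both. It passed in no comparison, and its 95% interval for the combination against vehicle ran from -0.02 to 0.49 on the log2 scale. Exons of MLX share 775 bases with PSMC3IP on the opposite strand, whose log2 fold change under the combination was 0.77 (adjusted p = 0.0057, edgeR). MGA (chromosome 15, 41913332 to 42065279, plus strand, GRCh37), the PRC1.6 member, held 46.5 and 47.7 CPM in vehicle, 68.2 and 53.0 with EC359, 31.1 and 32.9 with vorinostat, and 42.3 and 39.7 CPM with both. The libraries with vorinostat were below vehicle and the EC359 libraries above it. MGA fell under vorinostat by 0.56 on the log2 scale (SE 0.13, adjusted p = 0.0046, edgeR) and was lower in the combination than under EC359 alone, with -0.56 ± 0.13 (adjusted p = 0.0038, edgeR). The first of these calls was lost when any 1 vehicle or vorinostat library was left out (adjusted p between 0.022 and 0.040, edgeR), and the second without either combination library (adjusted p = 0.012 and 0.020, edgeR). Against vehicle, the combination gave -0.20 (adjusted p = 0.20, edgeR).

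Counted over the network, 5 of the 9 tested members passed an adjusted p of 0.01 under EC359 against vehicle, MYC, MXD1 and MXI1 higher and MXD3 and MXD4 lower, where 7.82% of all tested genes passed, 3.81% higher and 4.01% lower. In a fit of the 4 EC359 and vehicle libraries alone 0 of the 9 passed (edgeR, with 7 at an unadjusted p under 0.05). The share of all genes that passed in that fit is not given here, so this count is no result about the network. Under vorinostat 5 passed, MYC, MAX, MXD1 and MXI1 higher and MGA lower, where 52.1% of all genes passed, 26.2% higher and 25.9% lower. Under the combination 6 passed, the same 4 higher and MXD3 and MXD4 lower, where 56.4% of all genes passed, 29.7% higher and 26.7% lower. These comparisons share the vehicle libraries, so their counts are not independent. Adding EC359 to vorinostat let 4 members pass, MYC and MXD1 higher and MXD3 and MXD4 lower, where 13.7% of genes passed, 8.45% higher and 5.26% lower. Adding vorinostat to EC359 let 5 pass, MYC, MAX, MXD1 and MXI1 higher and MGA lower, where 55.8% of genes passed, 29.5% higher and 26.3% lower. The members' shares of calls in the comparisons that add vorinostat are near those of all genes and are no result about the network. With a 2-fold threshold as well, the members that passed numbered 2 under EC359 (MXD1 and MXD3), where 3.67% of genes did, and 2 under vorinostat (MXD1 and MXI1), where 30.1% did. Under the combination they numbered 5, where 34.8% did, with MXD4 falling short. They numbered 2 for the combination against vorinostat (MYC and MXD1), where 4.25% did, and 2 for the combination against EC359 (MYC and MXD1), where 33.7% did. Libraries of the groups compared did not overlap in 7 of the 9 members under EC359, where 53.4% of all genes showed none, in 7 under vorinostat (88.9%), in 8 under the combination (86.5%), in 9 for the combination against vorinostat (72.9%) and in 6 for the combination against EC359 (79.7%). The members' median log2 fold change was 0.36 with EC359, 0.05 with vorinostat and 0.23 with both drugs, beside medians of -0.02, 0.03 and 0.07 over all tested genes. Counts from fits with 1 library left out follow without the share of all genes that passed in those fits. They describe how far the calls depended on single libraries and are no result about the network. The number passing under EC359 was 2 without vehicle library 1, 1 without vehicle library 2 and 8 without EC359 library 2, and under vorinostat it was 3 without vehicle library 1 and 7 without either EC359 library, when MXD3 and MNT also passed, both lower. For the combination against vorinostat it was 1 when any 1 vorinostat or combination library was left out, 2 without either vehicle library and 7 without either EC359 library, when MXI1, MNT and MGA also passed, all higher. Without EC359 library 2, MAX, MNT and MGA also passed under EC359 against vehicle, all higher, and MXD4 (higher) and MNT (lower) in the combination against EC359. For the combination against EC359 the number was 3 without either combination library and 7 without EC359 library 2. For the combination against vehicle it was 6 without each library in turn.

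**Figure D2:**
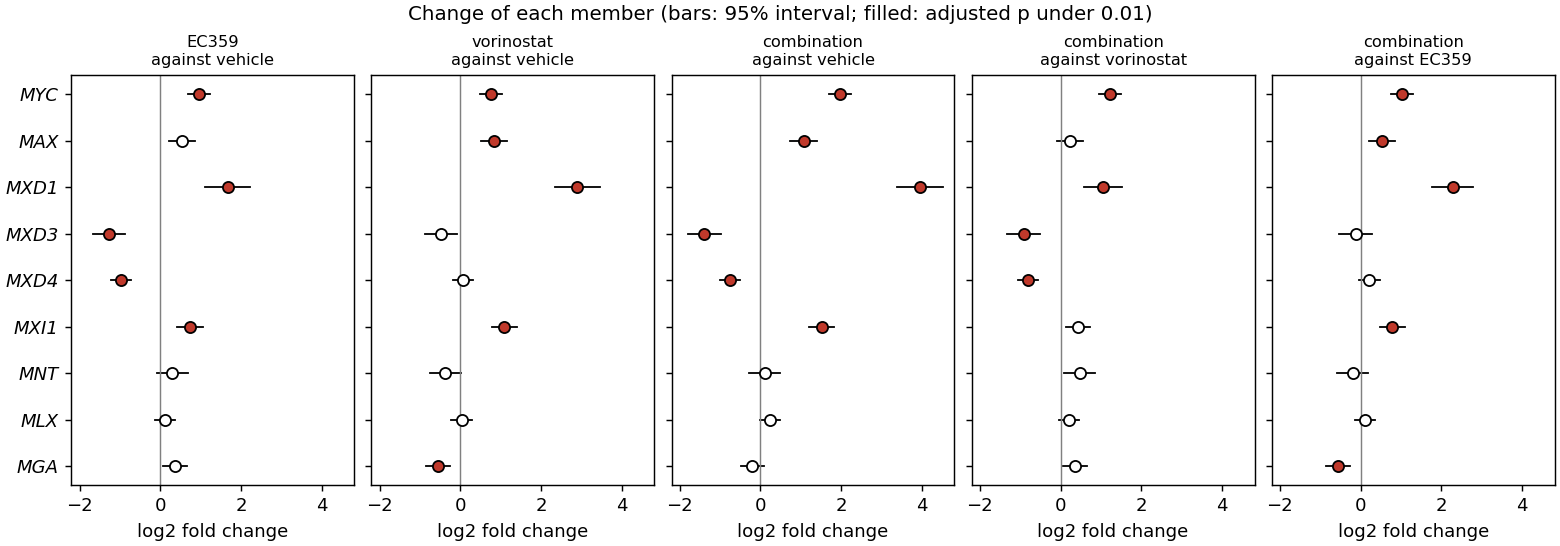
Log2 fold change of each tested member in each of 5 comparisons, with 95% intervals as bars and filled points where the adjusted p was under 0.01. MYC, MXD1 and MXI1 lie above 0 under each drug, while MXD3 and MXD4 lie below 0 under EC359 and the combination.

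Whether the drugs' changes in a member added up on the log2 scale was tested as the interaction of EC359 and vorinostat. No member of the 9 passed an adjusted p of 0.01 in the quasi-likelihood test of edgeR, none in DESeq2, and none had an unadjusted p under 0.05. Of all tested genes 2.1% passed the adjusted threshold and 22.4% had an unadjusted p under 0.05. For MYC the interaction was 0.26, with a 95% interval of -0.11 to 0.64. MAX had -0.28 (-0.73 to 0.17), MXD1 -0.61 (-1.35 to 0.12), MXD3 0.35, MXD4 0.16, MXI1 -0.30, MNT 0.19, MLX 0.08 and MGA -0.01. The intervals allow departures from the sum of more than 0.5 for MYC and of more than 1 for MXD1 on the log2 scale. Without EC359 library 2, which leaves only the EC359 library farther from vehicle, the interaction was -0.51 for MAX and -0.97 for MXD1. Over all the alternatives it ran from -0.51 to -0.02 for MAX and from -0.97 to -0.14 for MXD1.

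The share of MYC in the network's transcripts was higher in each treated group than in vehicle. MYC and MYCN made up 38.7 ± 1.27% (SD, n = 2) of the summed TPM of the 10 members in vehicle, 54.4 ± 0.556% with EC359, 45.8 ± 0.496% with vorinostat and 63.8 ± 0.884% with both drugs. The MXD proteins and MNT, the repressor class, went from 31.7 ± 0.0654% to 18.5 ± 1.41%, 26.5 ± 0.557% and 16.6 ± 0.949% in the same order. The libraries of the 4 groups did not overlap in the share of MYC. These shares combine members and are given as a description, with no test. The summed level of the repressor class itself was 123 ± 6.96 TPM in vehicle, 98.5 ± 5.47 with EC359, 140 ± 0.654 with vorinostat and 139 ± 0.106 with both drugs, with members moving in opposite directions. MAX made up 13.9 ± 0.827% in vehicle and 12.2 ± 0.0596% in the combination.

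**Figure D3:**
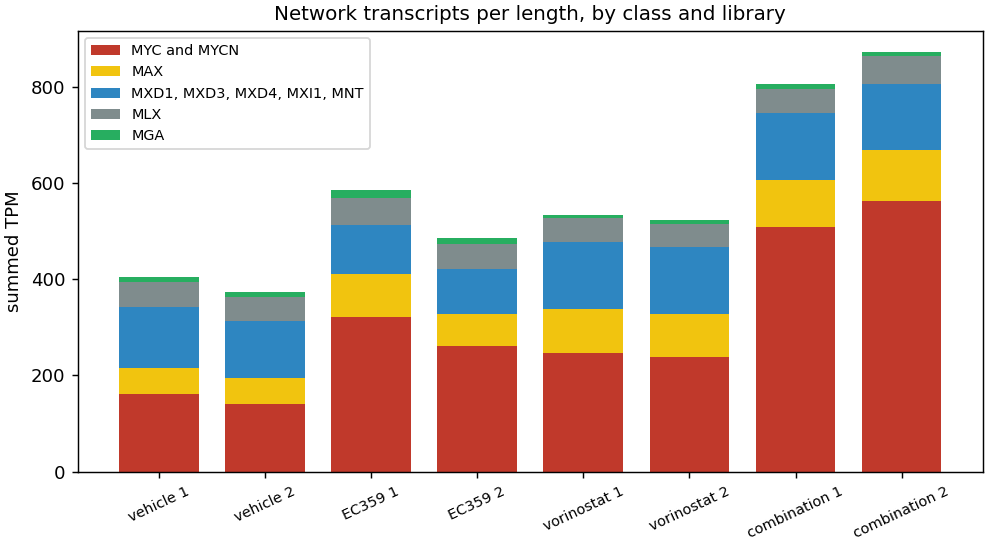
Summed TPM of the 10 members in each library, stacked by class, on an axis that starts at 0. The MYC class is the tallest part of each bar and made up 38.7% in vehicle and 63.8% in the combination.

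The 5 genes whose profile over the 8 libraries was closest to that of MYC were CCNL1, ZCCHC6, RNF19B, AKNA and JUN. Likeness was measured as the root mean square difference of log2 CPM, each gene centred on its own mean, among tested genes with an average log2 CPM of at least 3. It was 0.0901 for CCNL1, 0.0948 for ZCCHC6, 0.0999 for RNF19B, 0.101 for AKNA and 0.114 for JUN. CCNL1, which codes for cyclin L1, held 48.9 and 39.5 CPM in vehicle, 80.8 and 78.5 with EC359, 71.5 and 71.9 with vorinostat, and 163 and 166 CPM with both. JUN, a subunit of AP-1, held 309 and 300.4 CPM in vehicle and 1141 and 1152 CPM under the combination. In both genes the combination libraries were the highest, as in MYC, whose profile over the same libraries was the basis of the choice.

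Of the rest of the network, MYCL and MLXIP changed with vorinostat. MYCL, a paralog of MYC (listed as MYCL1), stood at 2.42 ± 0.450 CPM in vehicle, 4.35 ± 0.443 with EC359, 9.98 ± 2.03 with vorinostat and 10.7 ± 1.18 with both drugs. It rose by 2.04 on the log2 scale under vorinostat (adjusted p = 5.8e-05, edgeR) and by 2.14 under the combination (adjusted p = 3.6e-05, edgeR), and had 0.84 under EC359 (adjusted p = 0.044, edgeR). Adding EC359 to vorinostat gave 0.10 (adjusted p = 0.75, edgeR), unlike the 1.22 of MYC, although the difference between both genes was not tested. MLXIP, the MLX partner also called MondoA, stood at 21.8 ± 2.62 CPM in vehicle and rose under vorinostat to 36.9 ± 1.30 CPM (log2 fold change 0.76, adjusted p = 0.0035, edgeR) and under the combination to 46.8 ± 2.79 CPM (log2 fold change 1.10, adjusted p = 3.5e-04, edgeR). MLXIPL, known as ChREBP, held 0 and 1 counts in vehicle, 0 and 0 under EC359, 17 and 18 under vorinostat, and 9 and 15 under the combination. It passed against vehicle under vorinostat (adjusted p = 0.0026, edgeR), and no fold is given since the vehicle libraries are at or under the limit of 3 counts. TXNIP, a target of MLXIP and MLX that restrains glucose uptake, stood at 53.4 ± 0.565 CPM in vehicle, 166 ± 22.5 with EC359, 923 ± 5.0 with vorinostat and 1538 ± 94.3 CPM with both. It rose by 1.64 with EC359, 4.11 with vorinostat and 4.85 with both drugs on the log2 scale (adjusted p = 1.6e-05, 8.7e-08 and 1.8e-08, edgeR). KLF10, the other tested MLX target, rose by 1.48 under the combination (adjusted p = 7.2e-05, edgeR) and passed under neither drug alone. It stood at 84.7 ± 8.17 CPM in vehicle, 114 ± 33.0 with EC359, 84.0 ± 2.90 with vorinostat and 236 ± 21.5 with both. Of the 3 listed targets of MLX and MLXIP, 2 passed the filter on low counts.

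The corepressors and cofactors of the network are set beside the shares of all tested genes that passed, which were 7.82% with EC359, 52.1% with vorinostat and 56.4% with both drugs. The lists' own shares with vorinostat lay on either side of that of all genes. Of the 16 genes of the SIN3 corepressor complex that the MXD proteins recruit, 0 passed under EC359 (edgeR, with 3 at an unadjusted p under 0.05, and 0 in DESeq2), and 3 rose and 4 fell under vorinostat. SAP18 rose by 2.16 and ING1 by 1.24 on the log2 scale under vorinostat, while RBBP4 fell by 1.21 and BRMS1L by 0.79. Of the 11 PRC1.6 partners of MGA, 0 passed under EC359 (edgeR, with 4 at an unadjusted p under 0.05, and 2 in DESeq2), and 2 rose and 5 fell under vorinostat, with RYBP up by 1.02 and L3MBTL2, which reads methylated histones, down (log2 fold change -1.56). Of 15 MYC coactivators, 0 passed under EC359 (edgeR, with 3 at an unadjusted p under 0.05, and 0 in DESeq2), while 2 rose and 8 fell under vorinostat, where the median was -0.55 beside 0.03 over all genes. CDK9, the kinase of P-TEFb, rose by 0.71, and SMARCB1, a subunit of SWI/SNF, fell by 1.75. Under the combination 2 rose and 7 fell, with KAT2A, the acetyltransferase GCN5, at -1.70. Of 15 genes of MYC protein turnover, 1 rose under EC359, the deubiquitinase USP36, by 0.78 (adjusted p = 0.0088, edgeR). Under vorinostat 2 rose and 6 fell, among the latter SKP2 by 1.30 and PLK1 by 1.22. Under the combination 2 rose, FBXW7, the ubiquitin ligase receptor of MYC, by 0.66, and FBXO28 by 0.54. In that comparison 5 fell, all past 2-fold, with log2 fold changes of -1.97 for PLK1 and -1.75 for AURKA. These lists came from general knowledge, were set with earlier results of these data known, and their counts are descriptions.

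Of the 32 tested genes that MYC is known to activate, 4 rose and 0 fell under EC359, where 3.81% of all genes rose and 4.01% fell (median log2 fold change 0.29, beside -0.02 over all genes), 15 of the 32 having an unadjusted p under 0.05, and in DESeq2 7 rose and 0 fell. Under vorinostat 4 rose and 13 fell, where 26.2% of all genes rose and 25.9% fell (median -0.39 beside 0.03), and the calls in either direction were near the 52.1% of all genes. Under the combination 6 rose and 11 fell, where 29.7% of all genes rose and 26.7% fell (median -0.16 beside 0.07). When EC359 was added to vorinostat 6 rose and 0 fell, where 8.45% of all genes rose and 5.26% fell (median 0.22 beside -0.01), 15 of the 32 had an unadjusted p under 0.05, and in DESeq2 6 rose and 1 fell. Under EC359, NOP16, a nucleolar protein, rose by 0.76 and WDR43, a ribosome assembly factor, by 0.62. Under vorinostat ODC1, the first enzyme of polyamine synthesis, rose by 3.06 and LDHA, the lactate dehydrogenase, by 1.06, while TFAP4 fell by 3.37 and MRTO4 by 1.19. NOP56, a component of box C/D snoRNPs, held 283 ± 2.17 CPM in vehicle, 329 ± 13.0 with EC359, 131 ± 2.08 with vorinostat and 195 ± 3.18 with both drugs. NOP56 and EIF4E, the cap-binding protein, rose when EC359 was added to vorinostat, by 0.57 (adjusted p = 0.0012, edgeR) and 0.72 (adjusted p = 0.0026, edgeR). Shares of all genes that rose in fits with 1 library left out are not given here, so the counts from such fits are no result about these targets. The count of 4 under EC359 depended on single libraries, with 0 rising without vehicle library 1 or vehicle library 2, 8 without EC359 library 1 and 13 without EC359 library 2. The count of 6 was 0 to 2 without single vehicle, vorinostat or combination libraries and 14 without either EC359 library.

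Of 10 genes that MYC is known to repress, 3 rose and 2 fell under EC359, 5 rose and 3 fell under vorinostat, and 6 rose and 4 fell under the combination. Of all tested genes 7.82%, 52.1% and 56.4% passed in these comparisons. The median log2 fold change of the list was 0.12, 0.85 and 1.59, beside -0.02, 0.03 and 0.07 over all genes. CDKN1A, the cell cycle inhibitor p21, went from 7.28 ± 0.211 CPM in vehicle to 43.5 ± 4.39 under EC359, 290 ± 1.80 under vorinostat and 470 ± 14.8 with both drugs. Relative to vehicle this was a log2 fold change of 2.58 under EC359 (adjusted p = 2.0e-06, edgeR), 5.31 under vorinostat (adjusted p = 2.8e-08, edgeR) and 6.01 under the combination (adjusted p = 1.1e-08, edgeR). GADD45A, a stress sensor, rose from 33.4 ± 1.98 CPM to 75.3 ± 4.45 with EC359 (log2 fold change 1.17, adjusted p = 6.9e-05, edgeR) and 252 ± 6.24 with both (log2 fold change 2.91, adjusted p = 6.2e-08, edgeR). CDKN2B, the cell cycle inhibitor p15, and THBS1, the matrix protein thrombospondin 1, fell under EC359 by 1.01 (adjusted p = 7.2e-04, edgeR) and 0.70 (adjusted p = 3.6e-04, edgeR). GAS1, a growth arrest protein, fell by 4.13 under vorinostat, and CCND1, cyclin D1, fell by 2.02, both on the log2 scale. With EC359, CCND1 was higher, at 118 ± 1.51 CPM in vehicle and 242 ± 10.3 with EC359. It stood at 29.2 ± 1.64 CPM with vorinostat and 55.1 ± 3.10 with both drugs. CACGTG was found in 9 of 33 windows of MYC-activated targets (27.3%), in 0 of 10 windows of repressed targets and in 6.34% of all windows. Among the other lists it ran from 0 of 3 windows (rest of the network) to 7 of 16 windows (43.8%, germ-line genes that MGA and PRC1.6 repress). Of 13 germ-line genes that MGA and PRC1.6 repress, 3 passed the filter on low counts and 0 passed under any comparison (edgeR). At most 2 of the 3 had an unadjusted p under 0.05 in a comparison, and 1 passed in DESeq2, lower in the combination than under EC359.

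**Figure D4:**
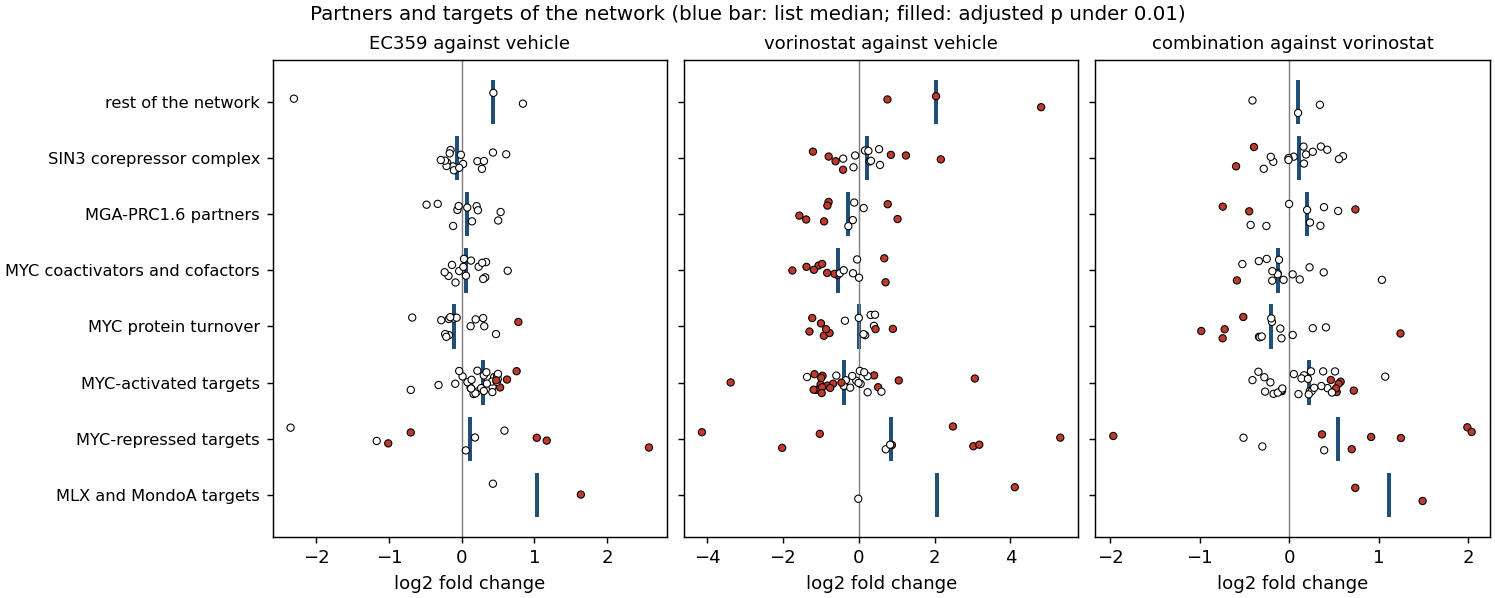
Log2 fold change of the tested genes of 8 lists in 3 comparisons, each gene a point (filled where the adjusted p was under 0.01), the blue bar the list median. The horizontal scale differs between panels. The median of MYC-activated targets lies above 0 under EC359 (0.29) and below 0 under vorinostat (-0.39).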

How the data were processed

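RNA-seq was analysed in 8 libraries of BT-549 cells, 2 per group. Total RNA was prepared with the TruSeq protocol and sequenced as 50 bp single-end reads. The submitters' processing notes name bcl2fastq, TopHat2 2.0.8b and HTSeq with the hg19 build. The authors deposited raw counts per gene symbol for each library, without normalization. The version of HTSeq and its strand setting are not given in the sources used here. Without strand, reads from a gene and a partner on the opposite strand cannot be told apart.

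The members and the gene lists were chosen with earlier results of these data known. Named genes are the members, MYCL, MLXIP, MLXIPL, the 5 genes closest to MYC, and from each list the 2 genes with the largest rise and fall that passed without overlap of libraries. PVT1 and MYCNOS were a list of their own. Neighbours that share exons with members were added for that reason.

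Counts were filtered with filterByExpr, scaled by TMM (factors 0.955 to 1.03) and fitted with 1 mean per group over 8 libraries by glmQLFit and glmQLFTest in edgeR 4.0.16 (R 4.3.3). Values were adjusted by Benjamini-Hochberg over 13694 genes. A gene passed at an adjusted p under 0.01. TPM used the union of exon lengths in GENCODE v44 lifted to GRCh37, matched for 21325 of 23228 symbols (91.8%). Summary lines of HTSeq were left out. Reads on genes were 85.1% to 88.1% of unique alignments. Alternatives were DESeq2 1.42.0, other scalings, filters, thresholds and fits, and each library left out. The procedure was tested on simulated data for EC359 against vehicle, and recovered 194 of 200 changed genes with 1 unchanged gene called, among 13352 genes. The size of the changes put into those data and the spread set between their libraries are not given here. The count is therefore no result about how often changes of the members' size are found. Figures were drawn with matplotlib 3.10.9 in Python 3.11.15.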

Additional observations from a re-analysis of the deposited data

Results flagged for a closer look

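In 5 genes of the lists around the network, the effect of EC359 differed between cells with and without vorinostat. These 5 passed the interaction test of edgeR at an adjusted p under 0.01, as did 2.1% of all 13694 tested genes. The count of 5 is a description. CDKN1A had an interaction of -1.88 (adjusted p = 1.8e-04), with 7.28, 43.5, 290 and 470 CPM in vehicle, EC359, vorinostat and the combination. THBS1 had 1.07 (adjusted p = 8.3e-04), with 2655, 1632, 1304 and 1679 CPM. TXNIP had -0.90 (adjusted p = 0.0082), AURKA had -0.75 (adjusted p = 0.0059) and GADD45A had 0.87 (adjusted p = 0.0065), all on the log2 scale. None of the 9 tested members was among them.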

How the results depend on the processing

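Of the member log2 fold changes recomputed under the alternatives, 837 stayed on their side of the threshold, 49 lost their call, 23 gained one, and no called member reversed direction. With a 2-fold threshold as well, 2 members passed under EC359, 2 under vorinostat, 2 for the combination against vorinostat and 2 for the combination against EC359. With only the 4 libraries of the groups compared, 0 passed under EC359 (7 had an unadjusted p under 0.05, and DESeq2 was run on all 8 libraries only), 7 for the combination against vorinostat and 3 for the combination against EC359. The shares of all genes that passed in these fits, and in those with 1 library left out, are not given here. Leaving out each library in turn, with the lone sample assumed to vary like the other groups, gave 1 to 8 members under EC359, 3 to 7 under vorinostat, 1 to 7 for the combination against vorinostat, 3 to 7 for the combination against EC359 and 0 to 2 for the interaction. With the longest transcript as length, the MYC share was 37%, 52.7%, 44.2% and 62.9% in vehicle, EC359, vorinostat and the combination. The cause was not tested.

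No label ties same-numbered libraries to a shared source. Their deviations from the group means had correlations from -0.173 (EC359 and the combination) to 0.231 (vehicle and EC359), so a pairing was not established. With the replicate number as a block, 4 members passed under EC359 in place of 5, as MXI1 gave an adjusted p of 0.012 (edgeR), and 5, 6, 4 and 5 in the other comparisons. A block with the combination numbers crossed, added after seeing the data, gave 5, 5, 6, 4 and 5. The combination against vorinostat had 61.6% of its calls higher with TMM and 46.8% with total counts. Upper-quartile scaling moved the median of all genes to 0.109 to 0.141 for vorinostat and the combination. At 2 libraries a group, small changes cannot be resolved.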
